A study of Homo sapiens with 8 samples.

Results

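The expression of 9 complement genes was followed in LY2 cells after knockdown of NCOA1: the complement receptor genes CR2 and CR1, the regulators CD46, CD55, CD59 and CFI, and the components C3, CFB and CFD. They were chosen by symbol, which matched 15 of the 63677 rows of the deposited gene table. The symbol CFB stood on 7 of these rows, of which 1 held reads and 6 were at 0, and every other symbol stood on 1 row. LY2 is an established endocrine-resistant breast cancer line derived from MCF-7. The 4 shSRC1 libraries came from LY2 cells stably carrying short hairpin RNA against SRC-1, a nuclear receptor coactivator that NCOA1 encodes. The 4 shNT libraries came from LY2 cells stably carrying a non-targeting hairpin. Cells of both groups grew in medium with 1e-08 M 4-hydroxytamoxifen and 500 ng/mL puromycin, were deprived of steroids for 72 h, and then received 1e-07 M 4-hydroxytamoxifen for 8 h. No group without tamoxifen is part of the comparison, SRC-1 was reduced and not removed, and the labels do not say whether each line is a clone or a pool. They also do not say that replicates came from separate cultures, so p-values measure only how far these libraries differ, and that spread may be technical.

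Complement is a cascade of plasma proteins that marks and lyses cells, and it runs through the cleavage of C3. Factor D, encoded by CFD, cleaves factor B, encoded by CFB, to form the C3 convertase of the alternative pathway. Nucleated cells hold the cascade in check with surface regulators: CD55 speeds the decay of the convertases, CD46 is a cofactor for the protease factor I, encoded by CFI, and CD59 blocks assembly of the membrane attack complex. CR1 and CR2 bind fragments of C3, and CR2, also known as CD21, is best known on follicular dendritic cells and on B cells, where it is part of a coreceptor with CD81.

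Values are normalized reads, that is, reads assigned to a gene divided by the size factor of the library, as deposited. Libraries held 33771775 to 66248960 assigned reads in shSRC1 and 58459196 to 67022036 in shNT, and the shallowest was shSRC1 replicate 2. NCOA1 had 1927, 1895, 2215 and 2107 normalized reads in shSRC1 replicates 1 to 4, against 4381, 4212, 4467 and 4525 in shNT replicates 1 to 4, a log2 fold change of -1.11 (SE 0.08, adjusted p = 2.25e-07 in limma), so the knockdown matched the labels. In these and all later per-library values the replicates run from 1 to 4. All 10 luminal epithelial markers were measured in every library, and their summed level was 585135 to 658486 normalized reads in shSRC1 and 382920 to 491318 in shNT. Of the 10, the keratin genes KRT8, KRT18 and KRT19, which make up most of that sum, rose (log2 fold change 0.68, 0.47 and 0.68), and 7 were not called, that is, did not pass an adjusted p of 0.05. The median log2 fold change of the list was 0.12, and its 3 calls among 10 genes stand beside 23.2% called of all tested genes. In bulk RNA, fewer cells of a type and less RNA per cell cannot be told apart.

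None of the complement genes passed the test between shSRC1 and shNT. Testing required 10 or more normalized reads in 4 or more libraries, a filter that 7 of the 9 genes passed. A gene was called at a limma p of 0.05 or less after Benjamini-Hochberg adjustment over all 19559 tested genes. Of the 7, 0 were called, while 23.2% of all tested genes were called, 12.0% higher and 11.2% lower in shSRC1. The count was also 0 with edgeR and with DESeq2 on recovered reads. It was 1 in some other settings, in which CFD, CR2 or CD59 was called, as given below. In the main fit 1 of the 7, CFD, had an unadjusted p in limma under 0.05, as 37.6% of all tested genes did. For all 9 genes the values of the groups overlapped, where the groups did not overlap in 29.0% of tested genes. The genes differed widely in level: the surface regulators CD46, CD55 and CD59 and the protease gene CFD were abundant, CR2, CFB and C3 were low, and CR1 and CFI were close to the limit of detection.

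**Figure D1:**
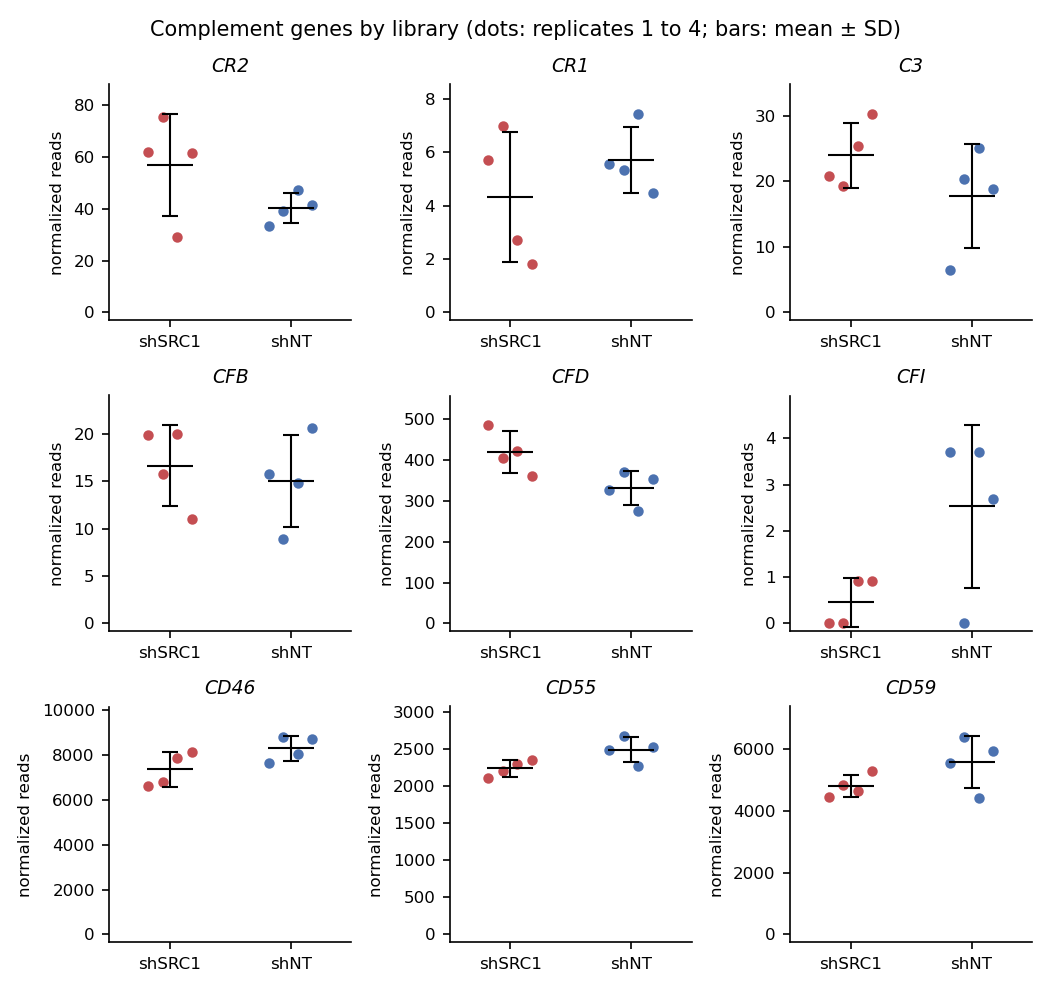
Normalized reads (y axis, from 0, a scale of its own in each panel) of the complement genes in shSRC1 and shNT libraries. Dots are replicates 1 to 4 and bars are the mean ± SD; the groups overlap in every panel, and shSRC1 replicate 3 is the lowest CR2 value at 29.1.

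CR2, CD46 and CD55 lie in the same gene cluster and differ widely in level. The 250 bases before the RefSeq start of each of these genes are shown because these neighbours, all tested, span the range from a low to a high level. The sequences are given 5′ to 3′ on the plus strand of GRCh38.p14, a later build than the GRCh37 of the deposited table, at chr1:207454078-207454327 for CR2, chr1:207321428-207321677 for CD55 and chr1:207751788-207752037 for CD46, for which the more upstream of 2 listed starts was taken. Capitals mark GGTCA or its reverse complement TGACC, the half-site letters of estrogen receptor elements.
CR2: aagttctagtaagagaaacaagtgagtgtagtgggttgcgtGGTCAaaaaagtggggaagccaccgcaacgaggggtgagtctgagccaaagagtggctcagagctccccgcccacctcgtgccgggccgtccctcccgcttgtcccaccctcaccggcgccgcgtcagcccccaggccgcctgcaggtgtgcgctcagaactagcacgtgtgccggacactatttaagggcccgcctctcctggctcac
CD55: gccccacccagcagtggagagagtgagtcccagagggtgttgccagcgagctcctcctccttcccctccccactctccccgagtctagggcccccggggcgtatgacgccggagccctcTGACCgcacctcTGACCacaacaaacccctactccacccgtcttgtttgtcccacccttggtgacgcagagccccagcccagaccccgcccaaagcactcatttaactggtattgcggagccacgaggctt
CD46: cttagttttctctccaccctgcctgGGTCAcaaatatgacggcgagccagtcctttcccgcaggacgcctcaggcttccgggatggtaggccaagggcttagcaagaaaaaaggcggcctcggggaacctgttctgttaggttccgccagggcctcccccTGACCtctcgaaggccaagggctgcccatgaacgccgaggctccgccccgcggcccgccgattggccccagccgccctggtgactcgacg
CR2 held 1 such match, CD55 held 2 and CD46 held 2, while at least 1 was present in 32.65% and 2 or more in 7.034% of 35116 RefSeq promoters of the same length. The full palindromic estrogen response element was in 0.0399% of them and in 0 of these windows. The windows were alike in base composition, with a GC content of 62.8% in CR2, 64.0% in CD55 and 64.8% in CD46 and 17, 12 and 19 CG pairs in the same order, against medians of 58% and 11 over all promoters. A promoter was found for 8 of the 9 genes, all but C3, and across those 8 the half-site count ran from 0 in CD59, CFB and CFD to 3 in CR1. CD59 had 4 listed starts, of which only the first listed was counted. These matches describe the letters in the windows and nothing about binding.

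CR2 (ENSG00000117322) had 61.7, 75.2, 29.1 and 61.4 normalized reads in the shSRC1 libraries, against 33.4, 39.1, 47.3 and 41.3 in the shNT libraries. Replicates 1, 2 and 4 of shSRC1 lay above every shNT library and replicate 3 lay below every one, so the groups overlapped. The means were 56.9 ± 19.6 in shSRC1 and 40.3 ± 5.76 in shNT (SD, n = 4 each). The log2 fold change was 0.42 (SE 0.27, 95% confidence interval (CI) -0.17 to 1.00, adjusted p = 0.280 in limma), on a log2(value + 1) scale that understates the change of low genes. An exact two-sided permutation test of the 8 values gave p = 0.1429, where 4 against 4 libraries can reach 0.0286. On the fold scale the interval ran from 0.890 to 2.00.

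Counting error was large for CR2. Its 207 reads in shSRC1 and 177 in shNT came from 32 to 67 reads a library. The 32 reads of shSRC1 replicate 3 gave an exact 95% Poisson interval of 19.9 to 41.1 normalized reads, which does not meet the intervals of the other 3 shSRC1 libraries, the nearest of which began at 47.6. Counting error alone is covered by these intervals. Without that library the log2 fold change was 0.71 (adjusted p = 0.0477 in limma), and over the 8 fits that each left out a library it ran from 0.26 to 0.71. With any other single library left out the adjusted p was 0.247 to 0.555 in limma.

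Genes were ranked by how near their profile lay to that of CR2. Likeness was the root mean square difference of log2(value + 1) over the 8 libraries, each gene relative to its own mean, among the 15210 tested genes that averaged 50 or more normalized reads. Genes without a symbol were passed over in the ranking. The 5 nearest were GPR179 at 0.21, RASL11A at 0.25, DDC at 0.27, BMP8A at 0.27 and ZNF469 at 0.27. DDC, the aromatic amino acid decarboxylase that makes dopamine and serotonin, had 97.8, 92.7, 54.5 and 91.6 normalized reads in shSRC1, against 51.0, 55.1, 44.6 and 61.9 in shNT. It was the 1 of the 5 past the threshold, at a log2 fold change of 0.63 (adjusted p = 0.0489 in limma), a call lost when any 1 of 7 of the 8 libraries was left out. The DDC call was also lost with TMM or upper-quartile scaling (adjusted p = 0.0508 and 0.0545 in limma). The same held with a length and GC correction or with no filter (adjusted p = 0.0687 and 0.0838 in limma). GPR179 had a log2 fold change of 0.13 (adjusted p = 0.716 in limma). BMP8A has a near-identical copy, BMP8B, with which it can share reads. These genes were chosen for matching CR2 in the same 8 libraries, so their likeness to it there follows from the choice and is a description only. The DDC call rests on those same libraries and is likewise a description only.

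CR1 (ENSG00000203710), the receptor for the larger C3 and C4 fragments and a cofactor for factor I, was barely detected. Its values were 5.70, 7.00, 2.73 and 1.83 normalized reads in shSRC1, against 5.57, 5.33, 7.43 and 4.49 in shNT. These rested on 15 reads in shSRC1 and 25 in shNT, giving a shSRC1 to shNT ratio of 0.691 (exact 95% interval for counting error 0.339 to 1.36). The values overlapped and the gene did not pass the filter. It has a near copy, CR1L, which had 1 read in all 8 libraries, and reads shared by the pair cannot be placed with certainty.

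Among the abundant surface regulators, CD46 was the highest per length of transcript. Levels between genes are compared as normalized reads per kilobase of the longest transcript in GENCODE 29. CD46 stood at 939 ± 98.1 in shSRC1 and 1059 ± 69.4 in shNT, and CD55 at 774 ± 38.1 in shSRC1 and 861 ± 57.7 in shNT (SD, n = 4 each). CD59 stood at 627 ± 46.2 in shSRC1 and 728 ± 110 in shNT, and CFD at 349 ± 42.5 in shSRC1 and 276 ± 34.7 in shNT. CR2 followed at 13.4 ± 4.62 in shSRC1 and 9.50 ± 1.36 in shNT, and below it were CFB, C3, CFI and CR1. Per kilobase, CD46 was 70.0 times CR2 in shSRC1 and 111 times in shNT. With the union of all exons as the length, CD59 came above CD55, and CFI and CR1 also changed places. CD46 and CD55 lay apart by more than their SDs in both groups, CD55 and CD59 did so in shSRC1 and not in shNT, and CFI and CR1 overlapped. CFB and C3 lay within their spread of each other, at 5.82 ± 1.49 and 4.55 ± 0.939 in shSRC1 and 5.25 ± 1.68 and 3.36 ± 1.51 in shNT.

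CD46 (ENSG00000117335), the membrane cofactor protein that is also a measles virus receptor, was somewhat lower in shSRC1 without passing the test. It had 6599, 6792, 7879 and 8134 normalized reads in shSRC1, against 7648, 8774, 8022 and 8700 in shNT. Replicates 1 and 2 of shSRC1 lay below every shNT library, while replicates 3 and 4 lay among them. This gave a log2 fold change of -0.18 (SE 0.09, 95% CI -0.37 to 0.02, adjusted p = 0.166 in limma). After a correction of each library for GC content and length of transcripts it was -0.02 (adjusted p = 0.875 in limma). As a fold the interval ran from 0.775 to 1.01.

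CD55 (ENSG00000196352), decay-accelerating factor, had 2105, 2196, 2296 and 2354 normalized reads in shSRC1, against 2487, 2670, 2268 and 2532 in shNT. All shSRC1 libraries lay below shNT replicates 1, 2 and 4, and 2 of them lay above shNT replicate 3. The estimated log2 fold change was -0.15 (SE 0.08, 95% CI -0.32 to 0.02, adjusted p = 0.181 in limma).

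CD59 (ENSG00000085063), which is held in the membrane by a glycosylphosphatidylinositol (GPI) anchor as CD55 is, had 4442, 4811, 4632 and 5267 normalized reads in shSRC1, against 5537, 6379, 4411 and 5906 in shNT. Here too shNT replicate 3 stood apart from the other shNT libraries, below every shSRC1 library. The mean difference was a log2 fold change of -0.20 (SE 0.11, 95% CI -0.43 to 0.02, adjusted p = 0.171 in limma). Without shNT replicate 3 it was -0.31 (adjusted p = 0.00940 in limma). With shSRC1 replicate 2 left out as well it was again -0.31 (adjusted p = 0.0185 in limma). Both fits left out the shNT library that lay below every shSRC1 library. With any other single library left out it ran from -0.13 to -0.25, at an adjusted p of 0.142 to 0.375 in limma. The keratin genes were also lowest in shNT replicate 3, with KRT8 at 103828 normalized reads against 137714 to 144690 in the other shNT libraries. The part that library's composition plays in the CD59 difference was not tested.

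CFD (ENSG00000197766), which encodes the serine protease factor D, known also as adipsin, came nearest to the threshold. It had 485, 406, 423 and 362 normalized reads in shSRC1, against 328, 371, 276 and 353 in shNT. Only shSRC1 replicate 4 and shNT replicate 2 crossed over; the other shSRC1 libraries lay above every shNT library. The log2 fold change was 0.34 (SE 0.13, 95% CI 0.07 to 0.60), with an unadjusted p of 0.0176 and an adjusted p of 0.0663 in limma. The adjusted p was 0.0643 in edgeR and 0.0525 in DESeq2. Over 20 alternative settings it ran from 0.0365 to 0.172 and was under 0.05 in 3. Among these were the correction for length and GC content, with a log2 fold change of 0.32 (adjusted p = 0.0365 in limma), and the fit without shNT replicate 2, with 0.39 (adjusted p = 0.0470 in limma). The third was a replicate block, which pairs same-numbered libraries, with 0.34 (adjusted p = 0.0473 in limma). With the block and the correction together the adjusted p was 0.0529 in limma.

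C3 (ENSG00000125730), the central component of the cascade, was low, at 20.9, 19.2, 25.4 and 30.2 normalized reads in shSRC1, against 6.50, 20.4, 25.1 and 18.8 in shNT. The shNT values other than replicate 1 lay within or next to the range of shSRC1. The resulting log2 fold change was 0.53 (SE 0.38, 95% CI -0.27 to 1.34, adjusted p = 0.317 in limma), and 0.14 without shNT replicate 1 (adjusted p = 0.782 in limma). The 7 reads of that library gave an exact 95% Poisson interval of 2.61 to 13.4 normalized reads. The sum of 14 myeloid and T cell marker genes was also lowest there, at 60.3 normalized reads, against 72.9 to 144 in the other shNT libraries and 72.2 to 96.2 in shSRC1. Of these 14 genes, 8 stayed under 10 normalized reads in every library, so the sum is itself low and uncertain. Any link of these markers to the C3 value was not tested. C3 overlaps GPR108 on the same strand, and reads in a shared stretch cannot be placed with certainty.

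CFB, whose row with reads was ENSG00000243649, had 19.9, 15.7, 20.0 and 11.0 normalized reads in shSRC1, against 15.8, 8.89, 14.9 and 20.6 in shNT. The groups covered nearly the same range. The fit gave a log2 fold change of 0.16 (SE 0.35, 95% CI -0.59 to 0.91, adjusted p = 0.770 in limma), and its sign turned without shNT replicate 2, at -0.056. CFB overlaps C2, a neighbouring complement gene on the same strand, which stood at 146 in shSRC1 and 130 in shNT on average, and reads in a shared stretch are uncertain.

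CFI (ENSG00000205403) was listed at 0, 0, 0.909 and 0.916 normalized reads in shSRC1, against 3.71, 0, 3.71 and 2.69 in shNT. That is 2 reads in shSRC1 and 11 in shNT, giving a shSRC1 to shNT ratio of 0.209 (exact 95% interval for counting error 0.0226 to 0.959). Both groups held a library with no read, so the values overlapped. With no filter on low values, over 38332 genes, the adjusted p in limma was 0.280 for CFI and 0.647 for CR1.

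The rest of the cascade was read from lists of 54 further complement genes, of which 48 had a read in some library and 21 passed the filter. By limma, 3 of the 21 rose, 2 fell and 16 were not called, a share of 23.8% against the 23.2% of all tested genes. The median log2 fold change was 0.18, against -0.0025 over all tested genes. By role, 0 of 4 tested classical pathway genes were called, 1 of 4 lectin pathway genes rose, 1 of 2 terminal pathway genes fell, 1 receptor gene rose and 1 fell, and 1 soluble regulator rose.

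**Figure D2:**
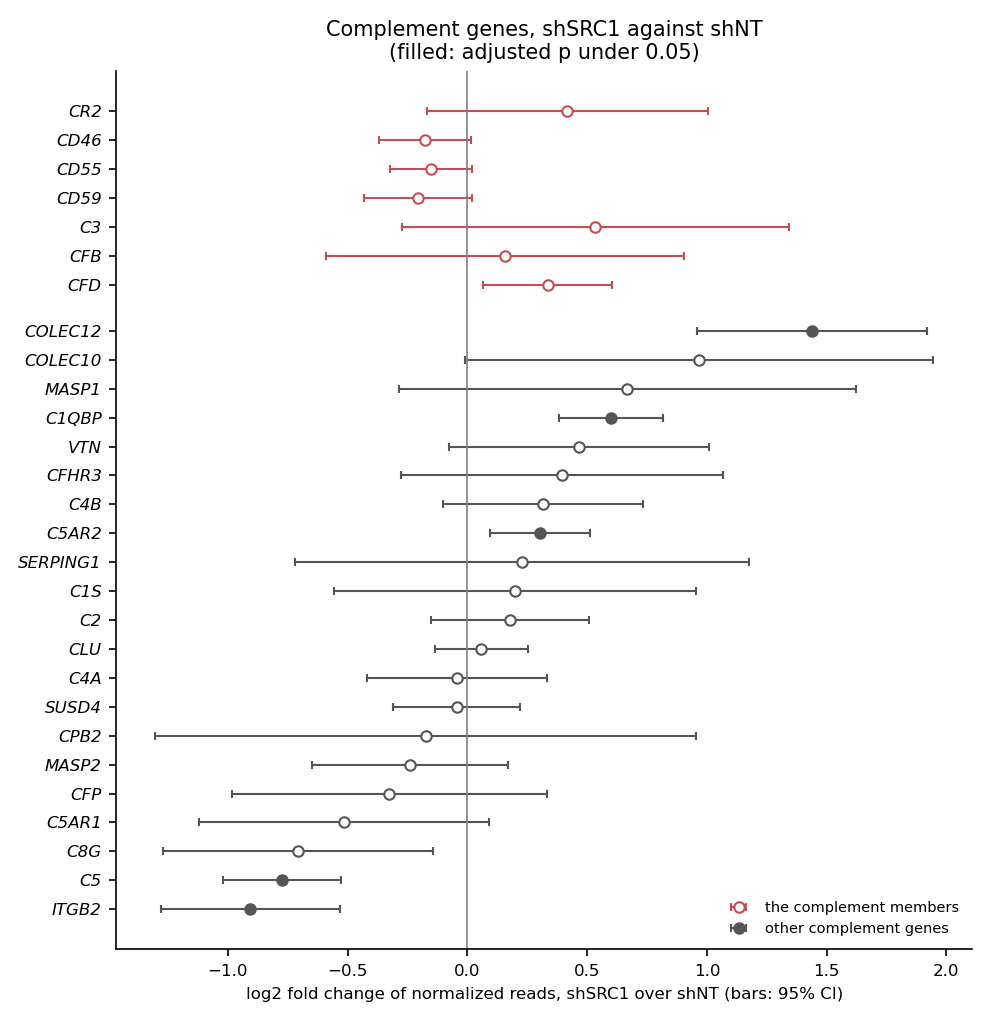
Log2 fold change of normalized reads, shSRC1 over shNT (x axis), with 95% CIs, for the 7 tested complement members (red) and 21 further complement genes (grey). Filled points passed an adjusted p of 0.05: none of the red points, and COLEC12, C1QBP, C5AR2, C5 and ITGB2 among the grey.

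C5 (ENSG00000106804), the precursor of the anaphylatoxin C5a and of the start of the membrane attack complex, fell. It had 574, 602, 805 and 782 normalized reads in shSRC1, against 1141, 1139, 1271 and 1129 in shNT, with no overlap. Its log2 fold change came to -0.77 (SE 0.12, 95% CI -1.02 to -0.53, adjusted p = 3.37e-04 in limma), called in all 20 alternatives. ITGB2 (ENSG00000160255), the beta chain of the complement receptors CR3 and CR4, fell to 114 ± 25.6 normalized reads in shSRC1, against 212 ± 28.9 in shNT (SD, n = 4 each), with no overlap. Its log2 fold change was -0.91 (SE 0.17, adjusted p = 0.00234 in limma), while its alpha chain partners ITGAM and ITGAX did not pass the filter.

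COLEC12 (ENSG00000158270), a membrane collectin and scavenger receptor, rose to 79.7, 77.0, 71.8 and 66.0 normalized reads in shSRC1, against 20.4, 33.8, 31.6 and 22.4 in shNT. Its log2 fold change was 1.44 (SE 0.23, adjusted p = 5.09e-04 in limma), the largest of the called complement genes. C1QBP (ENSG00000108561), which binds the globular heads of C1q but is chiefly a mitochondrial matrix protein, rose to 16892 ± 348 normalized reads in shSRC1, against 11242 ± 1606 in shNT (SD, n = 4 each), with a log2 fold change of 0.60 (SE 0.10, adjusted p = 9.12e-04 in limma). C5AR2 (ENSG00000134830), a second receptor for C5a, rose by a log2 fold change of 0.30 (SE 0.10, adjusted p = 0.0367 in limma), a call lost without shNT replicate 1, 3 or 4 or shSRC1 replicate 1, 2 or 4, where the adjusted p was up to 0.0954.

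**Figure D3:**
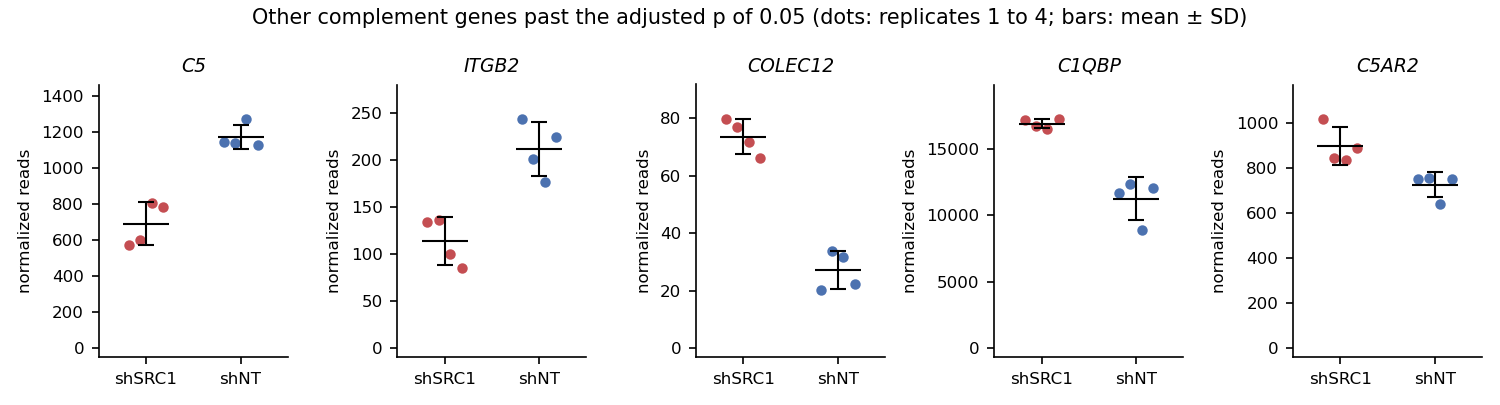
Normalized reads (y axis, from 0, a scale of its own in each panel) of the 5 further complement genes that passed the test, in shSRC1 and shNT libraries. Dots are replicates 1 to 4 and bars the mean ± SD; C5 and ITGB2 are lower and COLEC12, C1QBP and C5AR2 higher in all 4 shSRC1 libraries.

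CD55, CR2, CR1 and CD46 lie in that order on the long arm of chromosome 1, in the cluster of regulators of complement, with CR1L between CR1 and CD46. Of 27 listed genes from IKBKE to HSD11B1, in which the complement genes are included, 14 passed the filter. Of these, 3 rose, 4 fell and 7 were not called, among them CD55, CR2 and CD46. That is 7 called of 14, where 23.2% of all tested genes were called. The list does not hold every gene of that stretch and was chosen with earlier results of these data known. Its share is therefore a description only. IKBKE, an NF-kB pathway kinase, fell to 345 ± 23.9 normalized reads in shSRC1, against 626 ± 43.6 in shNT (SD, n = 4 each; log2 fold change -0.86, adjusted p = 4.32e-05 in limma). FAIM3, the Fc receptor for IgM, rose to 106, 89.2, 82.7 and 81.6 in shSRC1, against 39.0, 49.8, 26.9 and 52.0 in shNT, a log2 fold change of 1.12 (SE 0.23, adjusted p = 0.00305 in limma). Called genes thus lay on both sides of the complement cluster and went both ways.

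The other 5 calls around the cluster were smaller or less stable. DYRK3 and PLXNA2 rose by 0.69 and 0.30 on the log2 scale, and C1orf116, YOD1 and LAMB3 had log2 fold changes of -0.66, -0.89 and -0.52, with adjusted p-values from 0.0195 to 0.0481 in limma. Each of these 5 calls was lost without at least 1 library, and the count of 7 fell to 3 without shSRC1 replicate 2 and to 4 without shNT replicate 1, 2 or 4. It was 5 with edgeR, where YOD1 and LAMB3 were lost (adjusted p = 0.0563 and 0.0610 in edgeR). With the length and GC correction it was also 5, and YOD1 was lost (adjusted p = 0.105 in limma). PLXNA2 was lost with upper-quartile scaling (adjusted p = 0.0659 in limma).

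**Figure D4:**
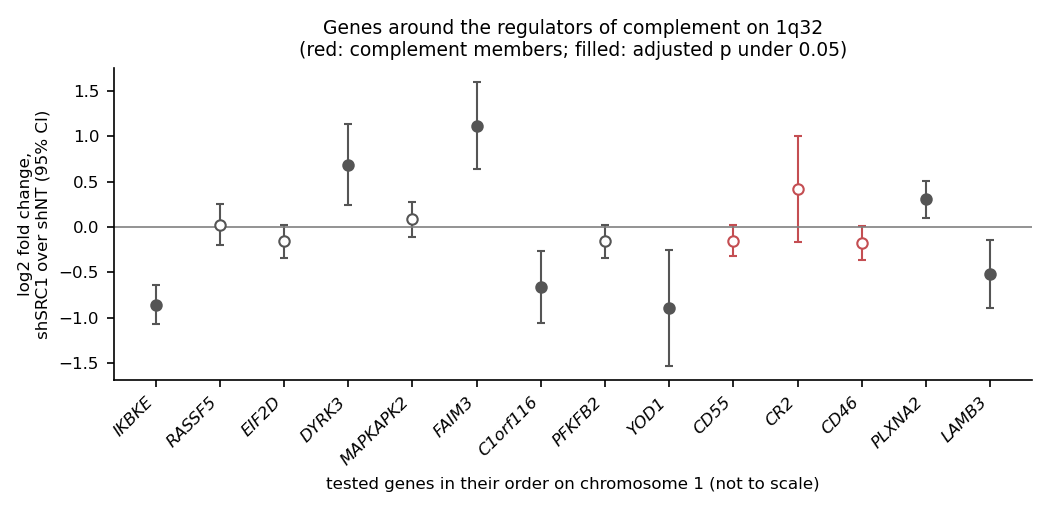
Log2 fold change, shSRC1 over shNT (y axis), with 95% CIs, of the 14 tested genes of the list around the complement regulators, in their order on chromosome 1 (x axis, not to scale). Red points are CD55, CR2 and CD46, none of which passed the test (open); filled points, such as IKBKE at -0.86 and FAIM3 at 1.12, passed an adjusted p of 0.05.

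The machinery that attaches GPI anchors, on which CD55 and CD59 depend at the surface, was measured for 27 of 28 genes, of which 4 rose, 1 fell and 22 were not called. The share called was 18.5%, below the 23.2% of all tested genes. PGAP1, which removes an acyl chain from the finished anchor, fell to 1386 ± 190 normalized reads in shSRC1, against 2168 ± 315 in shNT (SD, n = 4 each; log2 fold change -0.64, adjusted p = 0.00142 in limma). PIGN, DPM3 and PIGC, which act in anchor synthesis or in supplying its mannose, rose by log2 fold changes of 0.48, 0.70 and 0.42 (adjusted p = 0.00159, 0.0111 and 0.0117 in limma). The median of the list was 0.08, and PIGA, which starts the pathway, had a log2 fold change of -0.18 (adjusted p = 0.208 in limma). DPM3 and PIGC were lowest in shNT replicate 3, at 340 and 1120 normalized reads, which among the shNT libraries also held the lowest CD55 and CD59 values. CFD was lowest in that library too, at 276 normalized reads. Any link of these anchor genes to the CD55 and CD59 values was not tested.

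Of the B cell coreceptor that holds CR2, CD81 was abundant at 7945 ± 725 normalized reads in shSRC1 and 8237 ± 765 in shNT (SD, n = 4 each). IFITM1, an interferon-induced partner of that complex, fell to 463, 511, 503 and 448 in shSRC1, against 770, 1092, 828 and 957 in shNT (log2 fold change -0.91, adjusted p = 6.88e-05 in limma). Among 15 B cell markers, MS4A1, CD79B and FCER2 were at 0 in every library, as was the row for CD24, which luminal cells also express. The other 11 markers had a read in some library, and 7 passed the filter, of which 1 rose, 1 fell and 5 were not called, a share called of 28.6% against 23.2% of all tested genes. The B cell list summed to 1333 to 1401 normalized reads in shSRC1 and 1059 to 1225 in shNT, most of it CD22 and PAX5. CD22, a sialic acid binding lectin of B cells, rose by 0.69 on the log2 scale (SE 0.10, adjusted p = 2.24e-04 in limma), and BLK had a log2 fold change of -1.41 (adjusted p = 0.0481 in limma), lost without any 1 of 5 libraries. The BLK call was also lost with TMM or upper-quartile scaling (adjusted p = 0.0508 and 0.0571 in limma) and with a pseudocount of 0.5 (adjusted p = 0.0508 in limma).

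Follicular dendritic cells were looked for with 10 markers that include CR2 and CR1. FDCSP and FCER2 were at 0 in every library, and CXCL13 and PDPN were under 2 normalized reads. The list summed to 32997 to 38101 normalized reads in shSRC1 and 29849 to 36236 in shNT, nearly all of it CLU, which had a log2 fold change of 0.06 (adjusted p = 0.664 in limma). VCAM1 had 64.6, 75.2, 57.3 and 69.6 normalized reads in shSRC1, against 1.86, 0, 0.928 and 2.69 in shNT. VCAM1, an adhesion molecule of these cells and of activated endothelium, was the 1 called gene of 4 tested (23.2% of all tested genes were called), at a log2 fold change of 4.99 (adjusted p = 1.61e-06 in limma) whose size depends on the pseudocount of 1, since shNT held 6 reads in all. VCAM1 passed the filter only through the shSRC1 libraries, where it was high. Its p-value and its place in that count are therefore a description only. PTPRC, the pan-leukocyte marker CD45, had 1.90, 1.75, 4.54 and 5.50 normalized reads in shSRC1, against 0, 2.67, 8.36 and 2.69 in shNT.

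Of 20 transcription factor genes known to be linked to CR2, C3 or CFB expression, 19 passed the filter, of which 1 rose, 1 fell and 17 were not called. The share called was 10.5%, below the 23.2% of all tested genes. NFKB2, a subunit of NF-kB, fell to 1434 ± 202 normalized reads in shSRC1, against 2135 ± 115 in shNT (SD, n = 4 each; log2 fold change -0.58, adjusted p = 9.14e-04 in limma). USF2 rose by 0.33 on the log2 scale (adjusted p = 0.0203 in limma), a call lost without shSRC1 replicate 1 (adjusted p = 0.0600 in limma). ESR1, STAT3, IRF1 and RBPJ had log2 fold changes of -0.13, -0.0059, 0.07 and -0.17 and were not called.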

How the data were processed

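Poly(A)-captured RNA was sequenced with an Illumina TruSeq kit, per the labels' protocols, which do not describe it as stranded. The authors deposited 1 table in which each value is a signal, a read count divided by a size factor for its library. TopHat2 2.0.12, HTSeq 0.6.1, DESeq2, DESeq and the GRCh37 build are named per the submitters' processing notes; how reads were assigned, and with which annotation, is not given in the sources used here. Dividing by the worth of 1 read gave whole reads for 100% of values (within 0.001 reads), and these gave depths and the count tests. Values were tested with limma 3.58.1 in R 4.3.3 (mean-variance trend, robust) on log2(value + 1), two-sided, with no replicate block. On simulated counts for the 19559 genes, the script was checked to recover changed genes of higher level. Recovery was not checked for genes as low as CR2, C3 and CFB, so that check does not bear on them. Alternatives were edgeR 4.0.16, DESeq2 1.42.0, other scalings, filters, pseudocounts, a length and GC correction, a replicate block and libraries left out. Groups and replicate numbers came from sample titles, and the same numbers were not taken to pair libraries. GENCODE 29 gave transcript lengths, and RefSeq gave promoters and gene order. C5AR2 was matched through an older symbol. Named genes were all members, NCOA1, the called genes of the chromosome 1 cluster, up to 4 called genes of each other list by smallest adjusted p and the 5 genes nearest CR2; CD81, CLU, PIGA, C2, C8G, GPR108, PTPRC, PAX5, markers at or near 0, integrin chains, transcription factors without a call and interleukin genes were added after values were seen. Members and lists were chosen with earlier results of these data known. Intervals cover counting error only, as PCR copies are not told apart without molecular identifiers. One gene of the B cell lists is not reported here.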

Additional observations from a re-analysis of the deposited data

How the results depend on the processing

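Over the 7 tested members and 20 alternatives, 130 of 137 tests kept direction and side of the threshold, 6 passed it and 1 turned sign; with a minimum of 50 normalized reads CR2, C3 and CFB were not tested. The count of members called higher was 1 (CFD) with the length and GC correction and 1 (CFD, adjusted p = 0.0473 in limma) with a replicate block but 0 with the block and the correction together (CFD adjusted p = 0.0529 in limma), and ran from 0 to 1 when single libraries were left out. The count called lower was 1 (CD59) without shSRC1 replicate 2 and shNT replicate 3 together, and ran from 0 to 1 with single libraries left out. The CR2 log2 fold change ran from 0.26 to 0.71 with single libraries left out. The calls in the chromosome 1 cluster numbered 4 without shSRC1 replicate 2 and shNT replicate 3 together, and 3 to 6 with single libraries left out. With single libraries left out the log2 fold change of CFB ran from -0.056 (without shNT replicate 2) to 0.33 and that of GPR179 from -0.029 (without shSRC1 replicate 2) to 0.31; the cause was not tested. Same-numbered libraries of the groups correlated in their deviations at 0.24, -0.01, 0.13 and 0.14, and in 3 of 4 numbers each library correlated best with its own, a hint of pairing from the data; the numbers were not taken as pairs because number 2 gave no correlation over 0.1 and the labels state no shared batch. A replicate block gave 6398 calls in place of 4538 over all genes, and a CR2 log2 fold change of 0.42 (limma adjusted p = 0.270). For CR2, C3 and CFB, low counts per library limit precision; for CR2 the spread between shSRC1 libraries also exceeded counting error.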

Other observations

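Interleukin genes that lie between IKBKE and the complement cluster on chromosome 1 were read at low levels and were singled out after their values were seen. IL20, a cytokine gene of the IL10 family, had 14.2, 15.7, 6.36 and 10.1 normalized reads in shSRC1, against 0, 0, 0.928 and 0.897 in shNT, with no overlap. That is 42 reads in shSRC1 and 2 in shNT, giving a shSRC1 to shNT ratio of 24.2 (exact 95% interval for counting error 6.29 to 206), and the gene did not pass the filter. Its neighbour IL24 had 34 reads in shSRC1 and 18 in shNT, at 6.65, 10.5, 12.7 and 6.41 normalized reads against 3.71, 4.44, 3.71 and 4.49, and again did not pass the filter. Among complement genes that missed the threshold, C8G, a chain of the membrane attack complex, had a log2 fold change of -0.71 (limma adjusted p = 0.0654) on 101 reads in shSRC1 and 200 in shNT.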
